A study of Mus musculus with 12 samples.

Results

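The 10 genes described here belong to the interferon response and to antigen presentation: Adar, Apobec3, B2m, Bst2, Cd274, Cd74, Ciita, Cmpk2, Cxcl9 and Cxcl10. They were chosen by name, with earlier results of these data known, and no threshold on their counts was used. All 10 were found among the 5545 genes analysed here, and all 10 were among the 2606 genes with enough counts to be tested. They were compared between natural killer (NK) cells and group 1 innate lymphoid cells (ILC1), and between lean and obese mice, with and without the library of obese ILC1 replicate 26.

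Interferons are cytokines that switch on a broad set of antiviral genes through STAT and IRF transcription factors. Type I interferons act mainly through the interferon-stimulated response element (ISRE), and interferon gamma, a product of NK cells and ILC1 themselves, through the gamma-activated site (GAS). Antigen presentation follows a pair of routes: MHC class I, with beta-2 microglobulin as its light chain, is carried by nearly all nucleated cells, whereas MHC class II is mostly found on dendritic cells, macrophages and B cells and is governed by the transactivator Ciita.

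RNA was sequenced from cells sorted out of the livers of 6 C57BL/6 mice (C57BL/6J in the study's methods), with NK cells and ILC1 taken from each animal, so that 12 libraries fell into 4 groups of 3. Lean mice received the RM1 chow and obese mice an obesogenic diet (45% AFE fat, with condensed milk), in each case from weaning and for 12 weeks. NK cells were lineage-negative NK1.1+ CD49a- CD49b+ and ILC1 lineage-negative NK1.1+ CD49a+ CD49b-, and libraries were made with a low input kit from 2 ng of total RNA. All groups shared the strain, and lean and obese groups of a cell type shared the sort gates. No transgene or deletion was used. Obesity was a model by diet alone. Libraries carry the number of their mouse (25, 26 or 27 within each diet), and a number used for both diets names 2 separate animals.

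Sequence upstream of the members was read from RefSeq windows of 300 bases (build GRCm38.p6, 250 before to 50 after each start), which covered 8 of the 10 genes. These genes had 11 windows, so counts of members below are per gene, whereas the shares of all windows are per window. The ISRE was searched as TTTCNNTTTC on both strands and the GAS as TTCNNNGAA, which reads alike on both strands. An ISRE stood in a window of 4 members (B2m, Cxcl10, Bst2 and Apobec3), and 3.44% of all 32851 windows held such a match. A GAS stood in a window of 2 members (Bst2 upstream of its start, and Adar downstream of a start), against 8.3% of all windows. The windows of 3 members (Cxcl9, Cmpk2 and Cd274) held neither set of letters. The 60 bases around each upstream match are given because they show how the motifs are arranged. Capitals mark the bases of ISRE or GAS matches, and each sequence runs 5′ to 3′ on the strand of its gene.
B2m, chr2:122147523-122147582, plus strand: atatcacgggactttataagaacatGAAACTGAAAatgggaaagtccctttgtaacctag
Bst2, chr8:71537568-71537627, minus strand: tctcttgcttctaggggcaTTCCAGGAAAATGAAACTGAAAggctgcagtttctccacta
Cxcl10, chr5:92349068-92349127, minus strand: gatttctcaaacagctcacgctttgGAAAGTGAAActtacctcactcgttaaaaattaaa
Apobec3, chr15:79892243-79892302, plus strand: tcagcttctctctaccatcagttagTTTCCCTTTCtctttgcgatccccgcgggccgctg

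In Bst2 the capitals cover a GAS match followed by 2 ISRE matches, where the first ISRE match overlaps both the GAS match and the second ISRE match. In Cxcl10 the match began 213 bases before the start, and in B2m, Bst2 and Apobec3 the first matched base lay between 136 and 140 bases before it. The match in Apobec3 was in the opposite orientation to those in B2m, Bst2 and Cxcl10. Apobec3 had a further RefSeq start whose window held neither motif. A match of letters is a description of the sequence and was not tested as a binding site.

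The libraries held 1666637 to 2826766 counts over the genes analysed here, which cover only the first part of the alphabet of gene symbols. Obese ILC1 replicate 26 stood apart from the other 11 libraries. Hepatocyte genes (8 markers, Alb among them) took 9.24% of its counts and at most 0.0607% elsewhere, and Kupffer cell and macrophage genes (11 markers) took 1.67% and at most 0.119% elsewhere. B cell genes (7 markers) took 0.624% and at most 0.0222% elsewhere. Dendritic cell genes (6 markers) took 0.162% and at most 0.00379% elsewhere. All markers of these 4 lists had more than 3 counts in that library. Conversely, the ILC1 markers in the table (Cd200r1 and Cxcr6) took 0.222% of its counts and 0.881% to 1.43% in the other ILC1 libraries. Another pair of libraries lacked genes found everywhere else: of the genes with at least 100 counts in every other library, 37 of 985 had 3 counts or fewer in lean NK replicate 27 and 69 of 1044 in obese ILC1 replicate 25, and none in the other 10 libraries. Across the NK libraries the NK markers in the table (Cma1 and Cx3cr1) took 0.321% to 0.579% of counts, and 0.00541% to 0.105% in ILC1, the highest of these in replicate 26. In that library Cx3cr1 had 1773 counts, within the 1186 to 2466 of the NK libraries, and Cma1 had 156, against 6668 to 9908. Outside replicate 26, each sort thus carried its own markers. In bulk RNA, fewer cells of a type and less RNA per cell cannot be told apart.

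**Figure D1:**
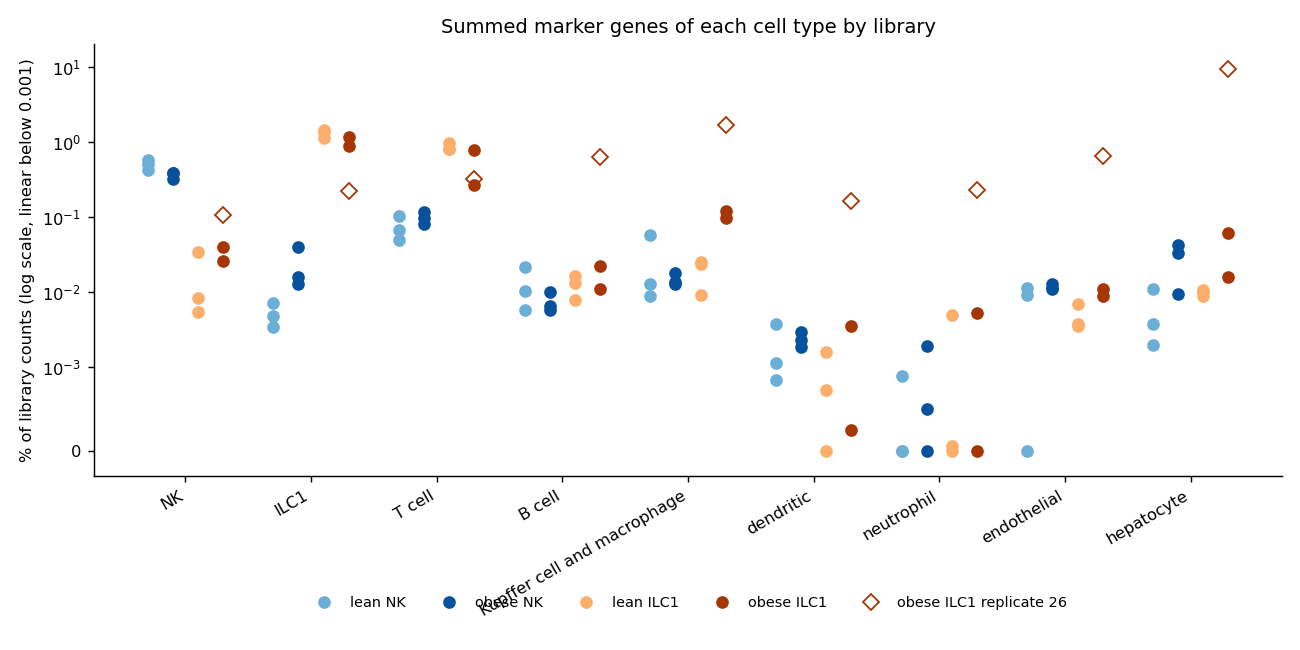
Share of each library's counts (in %, log scale, linear below 0.001) taken by the summed marker genes of 9 cell types, with 1 point per library coloured by group. The open diamond is obese ILC1 replicate 26, which lies above all 11 other libraries for hepatocyte, Kupffer cell and macrophage, B cell, dendritic cell, neutrophil and endothelial markers.

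Per kilobase of exon, B2m was far the most abundant member in every group, at a mean of 56128 normalized counts per kilobase in lean NK cells and 96270 in obese ILC1. Normalized counts are the authors' counts divided by a factor for each library. Each length is the union of all annotated exons of a gene, 9454 bases for Apobec3 and 903 for Bst2, so the order depends on these lengths. Before division by length, Apobec3 had a mean of 2621 normalized counts in lean NK cells and Bst2 341. In lean NK cells Bst2 (377 per kilobase), Apobec3 (277), Cd274 (153) and Cd74 (91.9) followed in this order, and neighbours among these 4 overlapped in their library ranges. Adar, Cmpk2 and Cxcl10 were at 44.1, 13.7 and 12.3 per kilobase, and the library ranges of Adar and Cmpk2 did not overlap. Cxcl9 and Ciita came last in lean NK cells, at 0.663 and 0.21 per kilobase. In lean ILC1 the same 4 genes followed B2m, with Bst2 at 891 and Cd74 at 852 per kilobase, whose library ranges overlapped, then Apobec3 at 332 and Cd274 at 169. Without replicate 26, obese ILC1 had Cd74 second, at 2519 per kilobase.

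**Figure D2:**
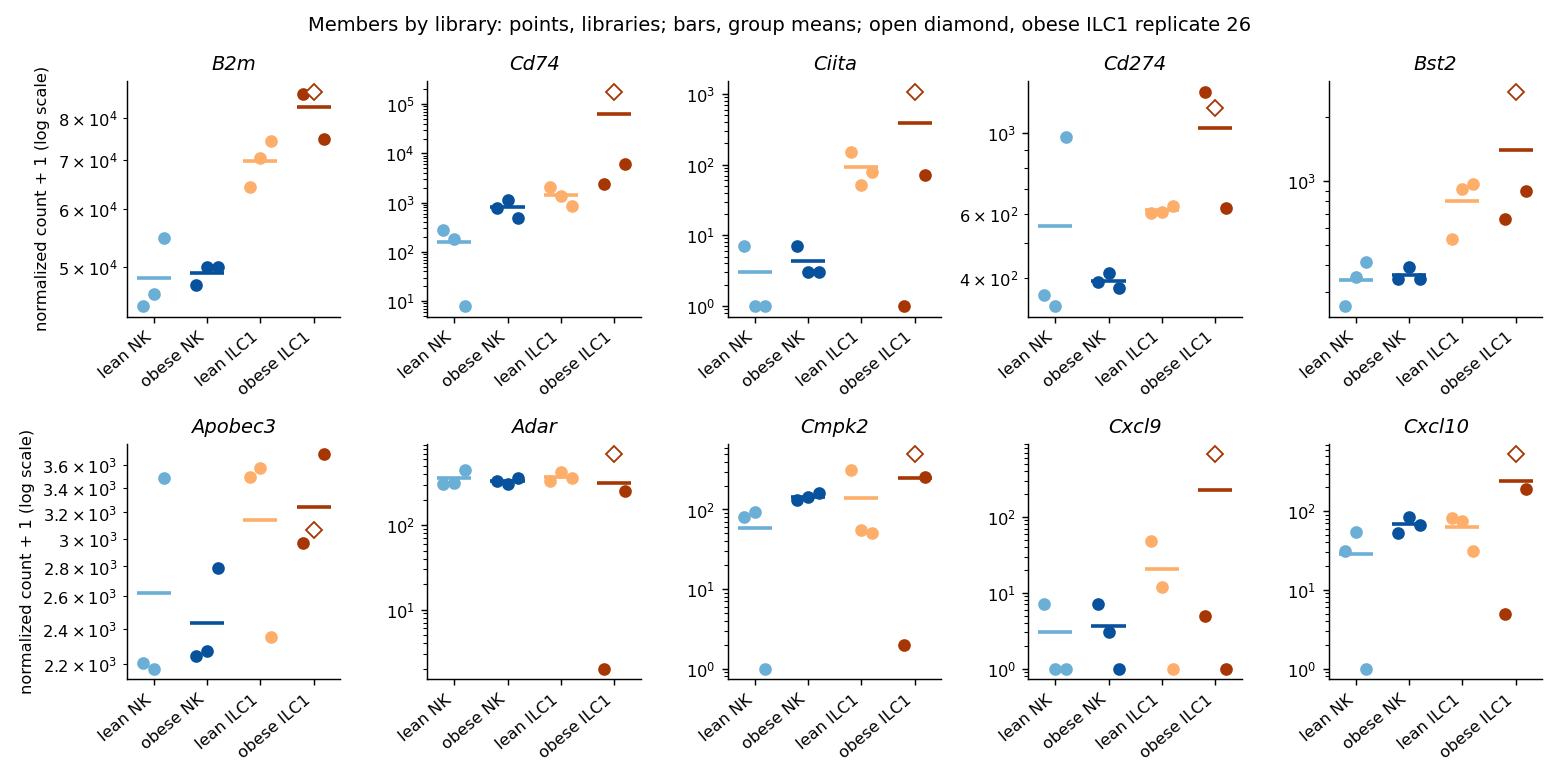
Normalized count plus 1 (log scale, a separate axis for each gene) of the 10 members in the 12 libraries, with 1 point per library and bars at group means. Obese ILC1 replicate 26, drawn as an open diamond, is the highest library for B2m, Cd74, Ciita, Bst2, Adar, Cmpk2, Cxcl9 and Cxcl10.

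The first question was whether the members differed between ILC1 and NK cells, averaged over the diets. Bst2, Cd74 and Ciita were called higher in ILC1 and no member was called lower, by edgeR's quasi-likelihood test, Benjamini-Hochberg adjusted. A call needed both an adjusted p below 0.05 and a change of more than 2-fold. These are 3 of 10 members, where 3.15% of the 2606 tested genes were called higher and 1.19% lower. Another member, B2m, passed the adjusted p but not the fold change, and 3.57% of tested genes were higher in ILC1 at this adjusted p with any fold change. The median log2 fold change was 1.23 over the members and 0.036 over all tested genes. The 3 calls depended on the fit. With the mouse as a replicate block, since NK cells and ILC1 came from the same animals, 0 of 10 members were called. Without obese ILC1 replicate 26, 2 members were called (Bst2 and Cd74), where 3.04% of the genes tested in that fit were called higher, and the median over the members was 0.76.

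B2m (chr2:122147686-122153083, plus strand) encodes the light chain of MHC class I. Its normalized counts were 44193, 45823 and 54795 in lean NK cells and 47141, 49988 and 49907 in obese NK cells. They were 64360, 70495 and 74490 in lean ILC1 and 86461, 86959 and 74956 in obese ILC1. Every ILC1 library lay above every NK library, which held for 3.03% of tested genes, and ILC1 were above NK cells in 6 of 6 mice. The difference was 1.54-fold, a log2 fold change of 0.62 (standard error 0.084, adjusted p = 0.00132 by edgeR's quasi-likelihood test, Benjamini-Hochberg adjusted). It was 0.60 without replicate 26 (adjusted p = 0.000387) and 0.62 with the replicate block (adjusted p = 0.0315), so that B2m kept an adjusted p under 0.05 in these fits and stayed under a fold change of 2. In lean mice alone the log2 fold change was 0.55 (adjusted p = 0.0359), and in obese mice alone it was 0.70 (adjusted p = 0.02). B2m took between 2.36% and 2.68% of the counts in NK libraries, and between 2.70% and 4.23% in ILC1 libraries, the lowest of these in replicate 26.

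Bst2 (chr8:71534255-71537456, minus strand), whose upstream sequence with overlapping ISRE and GAS letters is given above, encodes tetherin, which holds budding virus particles at the cell surface. Its normalized counts were 256, 351 and 415 in lean NK cells and 344, 391 and 343 in obese NK cells. They were 533, 919 and 961 in lean ILC1 and 662, 2633 and 895 in obese ILC1. NK and ILC1 libraries did not overlap, and ILC1 were above NK cells in 6 of 6 mice. By edgeR's quasi-likelihood test, Benjamini-Hochberg adjusted the log2 fold change was 1.56 (standard error 0.325, adjusted p = 0.0173), and 1.16 without replicate 26 (adjusted p = 0.0101). With the replicate block it was 1.43 and no longer called (adjusted p = 0.0575), and with the block and without replicate 26 it was 1.17 (adjusted p = 0.0958). The adjusted p also rose past the threshold, to between 0.0507 and 0.068, when lean NK replicate 25 or 26, lean ILC1 replicate 26 or 27, or any of the 3 obese NK libraries was left out.

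Cd74 and Ciita belong to the MHC class II route. Cd74 (on chromosome 18) encodes the invariant chain, which keeps the class II groove closed until peptide is loaded. Its normalized counts were 276, 180 and 7 in lean NK cells and 781, 1132 and 495 in obese NK cells. They were 2063, 1375 and 852 in lean ILC1 and 2353, 178451 and 6105 in obese ILC1. Replicate 26 thus stood far above the next highest library, and Cd74 was its most abundant gene, with 5.55% of its counts (exact 95% interval 5.52% to 5.58%, which covers counting error only). In the other libraries Cd74 ranked between 40 and 1683. ILC1 and NK libraries overlapped across the diets, since lean ILC1 replicate 27 lay below obese NK replicate 26, but ILC1 were above NK cells in 6 of 6 mice.

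For Cd74 the log2 fold change of ILC1 over NK cells was 4.69 (standard error 1.10, adjusted p = 0.0306 by edgeR's quasi-likelihood test, Benjamini-Hochberg adjusted). Without replicate 26 it was 2.78 (standard error 0.648, adjusted p = 0.0261), 6.86-fold in place of 25.8-fold, and still called. With the replicate block it was 3.96 (adjusted p = 0.106), and with the block and without replicate 26 it was 3.25 (adjusted p = 0.0526), not called in either fit. It was also not called when any lean ILC1 library, lean NK replicate 25 or 26, or any obese NK library was left out.

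Ciita (chr16:10480059-10528418, plus strand) encodes the transactivator of the class II genes. Its raw counts were 6, 0 and 0 in lean NK cells and 8, 3 and 3 in obese NK cells, near the floor of 3 counts taken here. They were 143, 51 and 75 in lean ILC1 and 0, 613 and 100 in obese ILC1. In lean mice every ILC1 library lay above every NK library, whereas obese ILC1 replicate 25 had no count, which allows up to 3 counts. Between the cell types the log2 fold change was 6.07 (standard error 1.54, adjusted p = 0.0446 by edgeR's quasi-likelihood test, Benjamini-Hochberg adjusted). With 4 of 6 NK libraries at 3 counts or fewer, this value depends on the prior count. In edgeR the call was lost without replicate 26 (4.39, adjusted p = 0.0959) and with the replicate block (5.59, adjusted p = 0.367). It remained when obese ILC1 replicate 25 was left out (6.36, adjusted p = 0.00601) and in no other edgeR fit with 1 library left out. DESeq2 called Ciita with all libraries (6.19, adjusted p = 0.00011) and without replicate 26 (4.48, adjusted p = 0.0048).

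Markers of cell types that carry MHC class II were summed beside Cd74 and Ciita. In the 3 lean ILC1 libraries, Kupffer cell and macrophage markers took 0.0092% to 0.0253% of counts with 4 to 8 of 11 genes above 3 counts and Clec4n at 0. In the 3 lean NK libraries they took 0.00878% to 0.0566% with 2 or 3 of 11 genes above 3 counts, and Adgre1, Cd5l, Cd14, Clec4n and Csf1r were at 0. In obese ILC1 replicates 25 and 27 the share was 0.0953% and 0.119%, above every lean library and every NK library. In replicate 27, 10 of 11 genes were above 3 counts. In replicate 25 only 4 were (Cd68 with 745 counts, Adgre1 520, Clec4f 250 and C1qb 74), and the other 7 were at 0. B cell markers took 0.00787% to 0.0165% in lean ILC1 and 0.0058% to 0.0214% in lean NK cells. Dendritic cell markers took at most 0.00158% in lean ILC1 and 0.00379% in lean NK cells, with Clec9a, Clec10a and Clec4a4 at 0 in both groups. T cell markers also moved with the cell type. They took 0.809% to 0.95% of counts in lean ILC1 and 0.268% to 0.771% in obese ILC1, against 0.0485% to 0.116% in the NK libraries, without overlap. Of these 9 genes 4 to 9 were above 3 counts in an ILC1 library and 4 to 7 in an NK library, and Cd3g had most counts of the list in each of the 6 ILC1 libraries, whereas Cd8a was at 0 in the ILC1 libraries other than replicate 26. The part of these cells in the counts of Cd74 and Ciita was not tested.

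Cd274 (chr19:29367455-29388095, plus strand) encodes PD-L1, the ligand of the inhibitory receptor PD-1 and an interferon gamma target. Its normalized counts were 358, 334 and 972 in lean NK cells and 388, 411 and 375 in obese NK cells. They were 602, 606 and 631 in lean ILC1 and 1298, 1174 and 621 in obese ILC1. All ILC1 libraries lay above 5 of the 6 NK libraries, and lean NK replicate 27 was the exception, the library that also lacked 37 otherwise general genes. Between the cell types the log2 fold change was 0.75 (standard error 0.29, adjusted p = 0.178 by edgeR's quasi-likelihood test, Benjamini-Hochberg adjusted) and Cd274 was not called. Without lean NK replicate 27 it was 1.07 (adjusted p = 0.0151) and Cd274 was called.

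The antiviral effectors Apobec3, Adar and Cmpk2 did not pass the test between ILC1 and NK cells. Apobec3 (chr15:79891659-79915906, plus strand), a cytidine deaminase that restricts retroviruses, had 2174 to 3485 normalized counts in lean NK cells and 2244 to 2789 in obese NK cells. It had 2351 to 3574 in lean and 2965 to 3693 in obese ILC1, with a log2 fold change of 0.32 (standard error 0.166, adjusted p = 0.34 by edgeR's quasi-likelihood test). Lean ILC1 replicate 27 and lean NK replicate 27 kept the cell types from separating. Adar (chr3:89715022-89753446, plus strand) edits adenosine to inosine in double-stranded RNA and was even outside 2 libraries. It ranged from 303 to 449 normalized counts in the NK and lean ILC1 libraries, with 251 in obese ILC1 replicate 27. The exceptions were obese ILC1 replicates 25 and 26, at 1 and 686. Replicate 25 held a single raw read of Adar where the other libraries held 306 to 489.

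Cmpk2 (chr12:26469204-26479837, plus strand), a mitochondrial nucleotide kinase induced by interferon, had 80, 91 and 0 normalized counts in lean and 129, 143 and 160 in obese NK cells. It had 316, 54 and 50 in lean ILC1 and 1, 491 and 253 in obese ILC1. The ranges of lean NK cells and of both ILC1 groups thus overlapped, and those of both ILC1 groups enclosed the obese NK libraries. Between the cell types the log2 fold change was 1.01 (standard error 1.15, adjusted p = 0.774 by edgeR's quasi-likelihood test, Benjamini-Hochberg adjusted).

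Cxcl9 and Cxcl10 (chr5:92321347-92328079 and chr5:92346638-92348889, minus strand) are neighbouring genes for chemokines induced by interferon gamma that draw Cxcr3-bearing lymphocytes. The raw counts of Cxcl9 were 6, 0 and 0 in lean NK cells, 7, 3 and 0 in obese NK cells, 45, 11 and 0 in lean ILC1 and 3, 378 and 0 in obese ILC1. Outside replicate 26, Cxcl9 thus exceeded 10 counts in 2 libraries, both lean ILC1. Cxcl10 had 30, 53 and 0 normalized counts in lean NK cells, 52, 84 and 65 in obese NK cells, 80, 73 and 30 in lean ILC1 and 4, 523 and 191 in obese ILC1. Between the cell types the log2 fold change was 4.79 for Cxcl9 (standard error 1.93, adjusted p = 0.203) and 1.36 without replicate 26, and 1.45 for Cxcl10 (standard error 1.07, adjusted p = 0.586), by edgeR's quasi-likelihood test, Benjamini-Hochberg adjusted. The low values of Cxcl10 in lean NK replicate 27 and obese ILC1 replicate 25, and those of Cmpk2, fell in the pair of libraries that lacked genes found elsewhere.

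**Figure D3:**
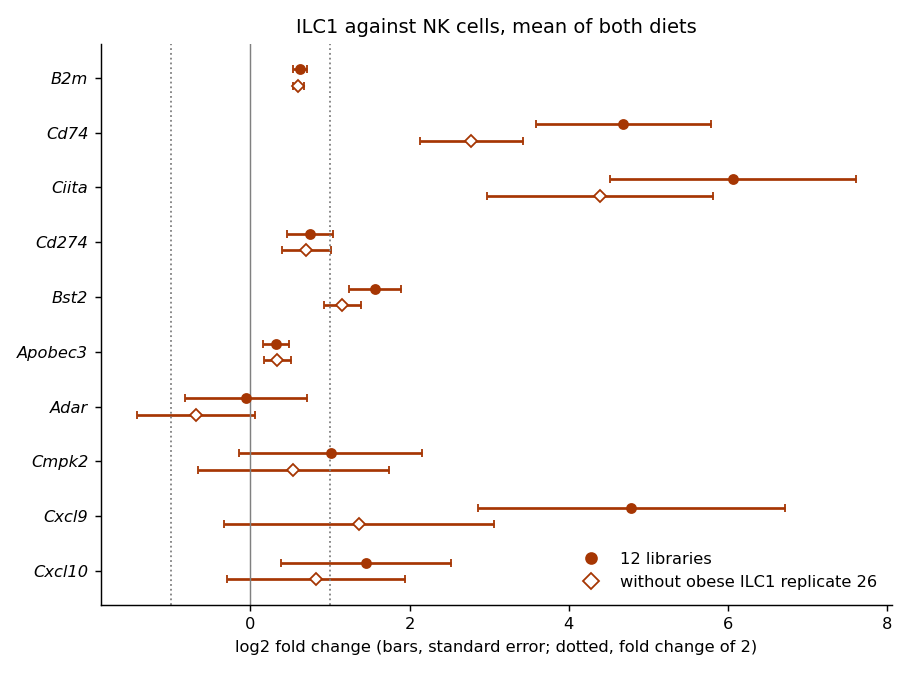
Log2 fold change of the 10 members, ILC1 over NK cells, with standard errors, in all 12 libraries (filled circles) and without obese ILC1 replicate 26 (open diamonds). B2m (0.62 and 0.60) moves little, whereas Cd74 (4.69 and 2.78), Ciita (6.07 and 4.39) and Cxcl9 (4.79 and 1.36) move most.

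Within each diet alone, no member was called between ILC1 and NK cells. In lean mice, the ILC1 libraries were all above the NK libraries for B2m, Bst2, Cd74 and Ciita, against 13.6% of tested genes. In obese mice they were so for B2m, Bst2, Cd74, Cd274 and Apobec3, against 9.40% of tested genes. Bst2 had a log2 fold change of 1.25 in lean mice (adjusted p = 0.238 by edgeR's quasi-likelihood test) and 1.88 in obese mice (adjusted p = 0.0829). Cd74 had 3.21 in lean mice (adjusted p = 0.373 by the same edgeR test) and 6.16 in obese mice (adjusted p = 0.113).

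Other genes of the same pathways were described beside the members. The lists hold symbols up to Cyp26b1 only, so their medians do not describe whole pathways. Over all tested genes, the share to set beside each list was 3.15% called higher in ILC1 and 1.19% called lower. Of 31 interferon-inducible genes, 22 were tested, 1 was called higher in ILC1 (Cd38) and none lower, with a median log2 fold change of 0.12 against 0.036 over all genes. Cd38, an ectoenzyme that consumes NAD, had 514 to 888 normalized counts in lean NK cells and 759 to 917 in obese NK cells, and 2837 to 3809 in lean and 2158 to 5893 in obese ILC1, without overlap. Its log2 fold change was 2.23 (standard error 0.225, adjusted p = 0.000217 by edgeR's quasi-likelihood test), and it was called in each of the 12 fits with 1 library left out and with the replicate block (adjusted p = 0.00655). Cd47, the "do not eat me" signal, was lower in ILC1 (-0.59, adjusted p = 0.0091 by the same edgeR test) at less than a 2-fold change, and Cnp was higher (0.61, adjusted p = 0.0405) at less than a 2-fold change. With the replicate block Cd47 kept an adjusted p under 0.05 (0.0458 by edgeR's test) and Cnp did not (0.237). The most abundant genes of the list, Ccl5, AW112010 and Btg1, had log2 fold changes of -0.76, -0.43 and -0.33 and none was called. Without replicate 26 the median of the list was -0.13, against -0.081 over all tested genes, and Cmklr1 was in addition called lower.

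Of 13 genes for processing and loading of antigen, 12 were tested, 1 was called higher in ILC1 (Ctsb, the lysosomal protease cathepsin B) and none lower. The median of the list was 0.56, and -0.16 without replicate 26. Ctsb had 1972 to 2584 normalized counts in NK cells, 4042 to 4831 in lean ILC1 and 5585, 58340 and 5272 in obese ILC1. Its log2 fold change was 2.07 (standard error 0.515, adjusted p = 0.0398 by edgeR's quasi-likelihood test), and 1.05 without replicate 26, where its adjusted p was 5.19e-05. With the replicate block it was 1.57 and not called (adjusted p = 0.199), and with the block and without replicate 26 it was 1.05 and called (adjusted p = 0.0049). It was not called when any lean ILC1, lean NK or obese NK library was left out. Calr, a chaperone of class I loading, had a log2 fold change of 0.80 (adjusted p = 0.0285 by the same edgeR test, and 0.0901 with the replicate block), under 2-fold. The most abundant other genes, Ctsd and Canx, had -0.30 and -0.015 and were not called.

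The receptors of the member chemokines and of Cd74 ligands gave 1 call among 3 tested of 4, with a median log2 fold change of 0.59. Cxcr3, the receptor of Cxcl9 and Cxcl10, had 256 to 900 normalized counts in lean NK cells and 1070 to 1197 in obese NK cells, and 6276 to 7477 in lean and 2390 to 6770 in obese ILC1. Its log2 fold change was 2.67 (standard error 0.335, adjusted p = 0.000817 by edgeR's quasi-likelihood test), it was called in all 12 fits with 1 library left out, and with the replicate block it was 2.69 (adjusted p = 0.0132). In lean mice alone it was 3.40 (adjusted p = 0.00357 by edgeR's test), and in obese mice alone it was 1.93 and not called (adjusted p = 0.073). Cd44, a partner of Cd74 at the cell surface, had 0.59 and was not called, and Cxcr2 was not tested for lack of counts. Of 4 costimulatory ligands, Cd86 (2.99) and Cd40 (6.88) were tested and not called, and both had their highest normalized count in replicate 26 (1772 and 632, against at most 317 and 58 elsewhere). Of 6 paralogs of the editing and nucleotide enzymes, 3 were tested and none was called, with Cmpk1 at -0.70, Apobec1 at 0.92 and Apobec2 at -3.23. Without replicate 26, Apobec2 was called lower (adjusted p = 0.0375 by edgeR's test), with 0 counts in the other 5 ILC1 libraries and 3 to 31 normalized counts in the NK libraries, and its fitted fold change then depends on the prior count.

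**Figure D4:**
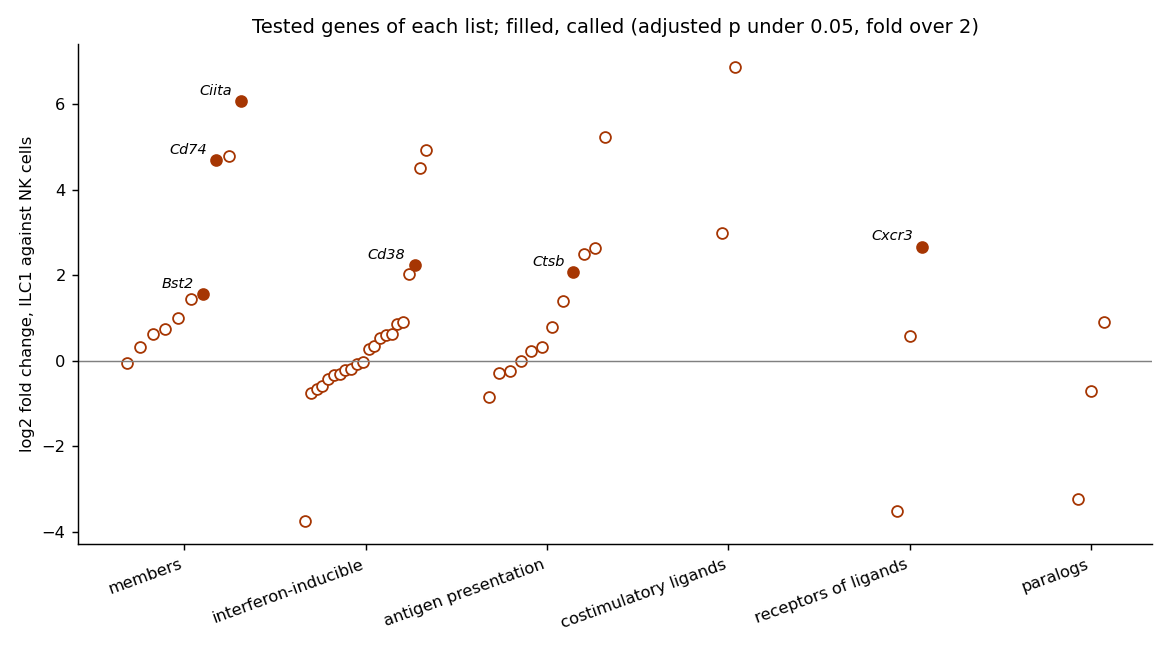
Log2 fold change, ILC1 over NK cells, of each tested gene, grouped by list and ordered within it. Filled points are the called genes, namely 3 members (Bst2, Cd74 and Ciita), Cd38, Ctsb and Cxcr3.

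Cd74 had the widest range of group means among the members. The genes whose centred log2 CPM values were nearest to its own over the 12 libraries were Cd81, Cfp and Cd79b, with root mean square differences of 1.11, 1.13 and 1.17. Over the 11 libraries without replicate 26 they were Adgrg5, Cd83 and Acpp, at 0.716, 0.828 and 0.93. None of the first 3 genes was among the second 3.

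The second question was whether obesity changed the members in NK cells. None was called, since 0 of 10 members and 0% of the 2606 tested genes passed edgeR's quasi-likelihood test after Benjamini-Hochberg adjustment. At an unadjusted p under 0.05 there were 0 members and 31 genes, and DESeq2 called 0 members and 8 genes, all higher in obese NK cells. The highest log2 fold changes were those of Cd74 (2.40, standard error 1.41), Cmpk2 (1.36, standard error 1.65) and Cxcl10 (1.31, standard error 1.51), each with an adjusted p of 1 by edgeR's test. Obese ILC1 replicate 26 entered the same model and its shared estimate of spread. With it left out, Cd74 stayed at 2.40 with a standard error of 0.884 (unadjusted p = 0.0206 by edgeR's quasi-likelihood test) and was not called. Every obese NK library was above every lean NK library for Cd74 and Cmpk2, 2 of 10 members, against 9.90% of tested genes. Without lean NK replicate 27, the low library for these 3 genes, the log2 fold changes were 1.84, 0.78 and 0.73.

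In NK cells, more Kupffer cell, macrophage and hepatocyte markers were detected in the obese libraries, beside the higher Cd74 counts. In the obese NK libraries 9 to 11 of 11 Kupffer cell and macrophage markers had more than 3 counts, against 2 or 3 in lean NK cells, and 7 or 8 of 8 hepatocyte markers against 1 to 3. For the B cell (4 to 6 against 1 to 5), T cell, dendritic cell, endothelial and neutrophil lists these numbers overlapped between obese and lean NK cells. The summed hepatocyte share was 0.00946% to 0.042% in obese and 0.00198% to 0.0108% in lean NK cells, also with overlap. The obese NK libraries were also deeper, with 2306550 to 2826766 counts against 1845970 to 2136211 in lean NK cells. They held more genes of all kinds with any count (3075 to 3084, against 1948 to 2841). The summed Kupffer cell and macrophage share was 0.0126% to 0.018% in obese and 0.00878% to 0.0566% in lean NK cells, so that the shares overlapped, while none of the 11 markers was at 0 in all obese NK libraries. The highest lean share was that of replicate 27, where Cd163 had 786 and Cd68 423 of the 1210 counts summed. The ILC1 markers Cd200r1 and Cxcr6 took 0.0128% to 0.0391% of counts in obese NK cells and 0.00337% to 0.00723% in lean NK cells, without overlap, and the highest of these was obese NK replicate 26, which also had the highest Cd74 count of the NK libraries. The study reported both Cd200r1 RNA and CD200R1 protein as higher in NK cells of obese mice, and proposes that these NK cells become ILC1-like. Whether the ILC1 markers came from NK cells or from other cells was not tested, nor was the part of other cells in the counts of Cd74. B2m, Bst2, Apobec3 and Adar had log2 fold changes between -0.067 and 0.12 in NK cells. Cd274 had -0.46, with lean NK replicate 27 as the highest NK library, and 0.21 without it.

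The third question was the same for ILC1, and here replicate 26 moved most values. By edgeR's quasi-likelihood test, 0 of 10 members and 0% of tested genes were called, 1 member (Cd74) and 277 genes had an unadjusted p under 0.05, and DESeq2 called 57 genes higher and 20 lower. Cd74 stood at a log2 fold change of 5.35 (standard error 1.6, adjusted p = 0.281 by edgeR's quasi-likelihood test, Benjamini-Hochberg adjusted), and DESeq2 called it (5.45, adjusted p = 0.00441). Without replicate 26, Cd74 was at 1.57 by edgeR (adjusted p = 0.604) and at 1.57 by DESeq2 (adjusted p = 0.493). Every obese ILC1 library was above every lean ILC1 library for B2m and Cd74, 2 of 10 members, against 7.29% of tested genes. For B2m the margin was narrow, with 74956 normalized counts in obese replicate 27 and 74490 in lean replicate 27. As a share of counts, B2m in obese replicate 26 (2.70%) lay below the lean ILC1 libraries (3.49% to 3.87%). B2m was at 0.21 with replicate 26 and without it (standard errors 0.118 and 0.107).

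The sign of several members in ILC1 turned when replicate 26 was left out. Bst2 went from 0.74 to -0.041, Ciita from 1.96 to -1.35, Cxcl9 from 3.42 to -3.39 and Cmpk2 from 0.76 to -0.13. Cxcl10 went from 1.90 to 0.69 and Adar from -0.32 to -1.54, the latter with replicate 25 as 1 of the 2 remaining libraries. None of these passed the test in either fit. Cd274 was at 0.71 with replicate 26 (standard error 0.41), 0.64 without it (standard error 0.456) and 0.48 without replicate 25. Its normalized counts were 1298 and 1174 in obese ILC1 replicates 25 and 26. Replicate 27, at 621, lay within the lean ILC1 range of 602 to 631. Apobec3 was at 0.013 with replicate 26 and 0.086 without it. The median over the members was 0.75 and fell to 0.022 without replicate 26, where the medians over all tested genes were 0.02 and -0.12.

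**Figure D5:**
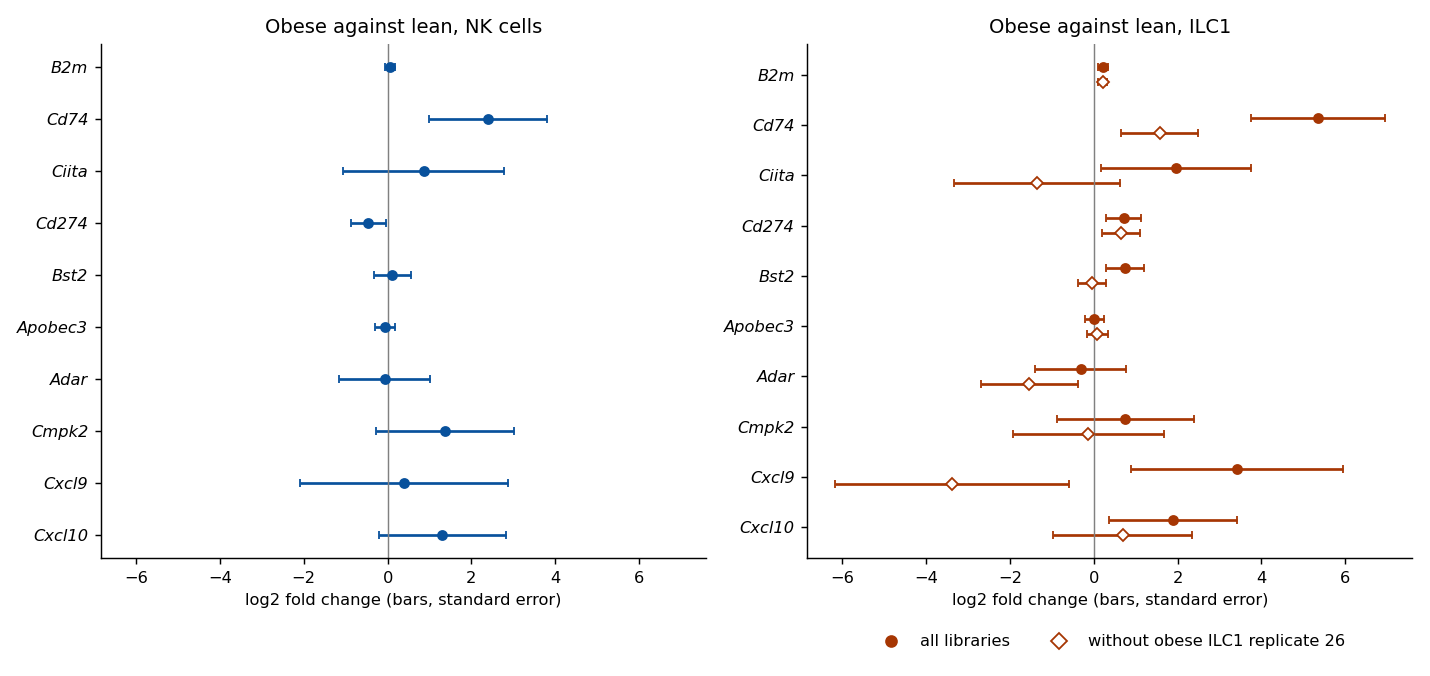
Log2 fold change of the 10 members between obese and lean mice, with standard errors, in NK cells (left) and in ILC1 (right), where open diamonds leave out obese ILC1 replicate 26. No value passed edgeR's test, and in ILC1 Bst2, Ciita, Cmpk2 and Cxcl9 change sign without replicate 26.

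The effect of diet was not shown to differ between the cell types for any member. In the interaction term of the same model, 0 of 10 members and 0% of tested genes were called by edgeR's quasi-likelihood test, 0 members and 155 genes had an unadjusted p under 0.05, and DESeq2 called 0 members, with 6 genes higher and 15 lower. The lowest unadjusted p among the members was that of Cd274, whose diet effect was larger in ILC1 than in NK cells by a log2 fold change of 1.17 (standard error 0.579, adjusted p = 0.833 by edgeR's test). Without lean NK replicate 27 this was 0.49. For Cd74 it was 2.95 with replicate 26 (adjusted p = 0.949 by edgeR's test) and -0.83 without it, and 0.011 with the mouse as a replicate block and all libraries kept (adjusted p = 1 by edgeR's test). Without replicate 26 the term also turned sign for Bst2 (0.62 to -0.15), Ciita (1.10 to -2.23), Cxcl9 (3.02 to -3.80) and Cxcl10 (0.59 to -0.62). The median over the members went from 0.60 to -0.72, where the medians over all tested genes were -0.049 and -0.22.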

How the data were processed

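RNA of sorted liver NK cells and ILC1 was sequenced from 12 libraries of 6 mice, and libraries were grouped by their labels. The authors deposited 1 table with raw read counts per gene and library and a normalized score, the same counts divided by a factor for each library and rounded. The submitters' processing notes name bcl2fastq 2.19, Trimmomatic 0.36.5, STAR 2.5.2b, featureCounts 1.6.0.2 and mm10, and the study names SARTools. The gene annotation and the strand setting are not given in the sources used here. The 5545 genes with complete rows (symbols up to Cyp26b1) were used, and 1 incomplete row was left out, so totals understate the depth and p-values were adjusted over these genes alone.

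The counts went into edgeR 4.0.16 under R 4.3.3, with TMM factors, the filterByExpr filter, and glmQLFit with glmQLFTest in a single model of the 4 groups (8 residual degrees of freedom, no block), and p-values were adjusted by Benjamini-Hochberg. The standard error was computed from the fold change and the root of the F statistic. Calls needed an adjusted p below 0.05 with more than a 2-fold change. DESeq2 1.42.0 was an alternative. The scripts were tested on simulated data. Replicates are separate mice, no 2 libraries held identical counts, and all pairs within groups differed by more than sampling noise. A count of 3 was the floor.

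NK cells and ILC1 with the same diet and number came from the same mouse, which the design gives, although their deviations from the group means correlated little (r = -0.076 to 0.141), and the mouse was the replicate block for this comparison. The members and gene lists were chosen with earlier results of these data known. All 10 members are named, with called list genes (up to 4 per comparison and direction), the 3 most abundant genes of each list, the 3 genes nearest to Cd74, and markers detected where members moved. Calr, Cd47, Cnp and Cmklr1 were named after their values were seen. Positions and exon lengths came from GENCODE vM21 (GRCm38). Alternatives were other size factors, filters, dispersions and thresholds, the compared groups or 1 diet alone, the block, and each library left out.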

Additional observations from a re-analysis of the deposited data

How the results depend on the processing

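ILC1 against NK cells gave 82 genes higher and 31 lower, 3 of them members. All 3 members were called with other size factors, without the filter and with robust dispersions, and 1 (Bst2) remained testable and called with at least 10 counts in every library, where 38 genes were higher. DESeq2 called 149 and 73 genes, and without replicate 26, 147 and 126, with Bst2, Cd74 and Ciita among those higher in both fits. With the replicate block 0 members and 32 and 14 genes were called, and without replicate 26 as well 0 members and 42 and 18 genes. Lean mice alone gave 0 members and 39 genes higher, and obese mice alone 0 members and 14 and 10 genes. Without a fold change threshold 58 genes were lower. With obese ILC1 replicates 25 and 26 and lean NK replicate 27 left out, chosen like the other joint settings after seeing the data, 3 members were called and 139 and 106 genes, with Cd74 at 2.77. With 1 library left out, members called ranged from 0 to 3 (0 in 7 of 12 fits), genes higher from 40 to 114 and lower from 22 to 47. Where 1 arm was left with few samples, they were assumed to vary like the other groups. Between diets, DESeq2 called 8 genes higher in NK cells, 57 higher and 20 lower in ILC1 with 1 member (37 and 39 with none, without replicate 26), and 6 and 15 for the interaction. Leaving out 1 library gave 0 to 1 genes higher in NK cells, 0 to 4 higher and 0 to 2 lower in ILC1, and 0 to 1 lower for the interaction. The block changed no call between diets. For obese against lean mice it was the number, which names separate animals in each diet, so that fit holds no true pairing.

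Uncalled log2 fold changes turned sign as follows, and the cause was not tested. Between ILC1 and NK cells, Adar was 0.069 in lean mice and -0.69 to 0.23 with 1 library left out, Cxcl9 was -0.96 without the 3 libraries and 1.36 to 6.85 with 1 left out, and Cmpk2 -0.21 with the replicate block without replicate 26. In ILC1, Apobec3 was -0.0079 without the filter, -0.015 with the number as a replicate block and -0.17 to 0.12 with 1 library left out. DESeq2 without replicate 26 gave Bst2 -0.036, Ciita -1.36, Cmpk2 -0.13 and Cxcl9 -3.41. With 1 library left out, ILC1 gave Adar -1.54 to 0.26, Bst2 -0.041 to 1.06, Ciita -1.35 to 2.54, Cmpk2 -0.13 to 2.18 and Cxcl9 -3.39 to 5.21. NK cells gave Adar -0.15 to 0.12, Apobec3 -0.19 to 0.18, Bst2 -0.049 to 0.27, Cd274 -0.71 to 0.21 and Cxcl9 -0.82 to 4.52, and the interaction gave Cd74 -0.83 to 3.52, with the turns of Bst2, Ciita, Cxcl9 and Cxcl10 without replicate 26 given above. Depth limited Cxcl9 and Ciita most, each at 3 counts or fewer in 4 of 6 NK libraries.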
